A study of Mus musculus with 5 samples.

Results

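Collagen chain genes encode the alpha chains from which collagens, the main structural proteins of the extracellular matrix, are built. They were found by symbol (Col, a type number, the letter a and a chain number), and the probe with the highest mean over the arrays stood for each gene. This gave 44 genes of 27 collagen types, among 17742 named genes on the array. They were read from 50 probes, and 5 genes had more than 1 probe. Col26a1 and Col6a5 were listed on the array under older names.

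Transcript levels came from 5 single-colour microarrays of mouse cells, with 1 array for each group. Undifferentiated embryonic stem cells (ESCs, day 0, control genotype) of the line 46C had grown in 15% serum with 1000 U/ml of the cytokine LIF on feeder cells, which were taken away at harvest. Control cells and Linc1405 knockdown cells were harvested at day 4, as mesoderm cells grown with Bmp4 (0.2 ng/ml), Activin A (5 ng/ml) and VEGF (5 ng/ml). Both lines were harvested again at day 10, as cardiomyocytes grown with bFGF (10 ng/ml), VEGF (5 ng/ml) and FGF10 (25 ng/ml). Linc1405 is a long non-coding RNA. The titles of the knockdown arrays at both days carry the tag KIpA, which the titles do not spell out. Beyond that tag the labels say neither how the knockdown was made nor whether the line was 1 clone. The level of the long non-coding RNA was not analysed here. The design asks what the knockdown does at each of the differentiation days.

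No group had a second array, so nothing could be tested, and every difference given here sets 1 array against another. The only error that could be estimated was that of the probes, from genes with several of them. For knockdown minus control the SD of 1 probe's log2 difference was 0.21 at day 4 over 1034 such genes, and 0.27 at day 10 over 1075. This probe SD, which leaves out differences between cultures, was 0.60 for control day 4 against ESCs and 0.73 for control day 10 against control day 4. The values are log2 normalized intensities. Intensities under 100 were set to 100, a log2 value of 6.64 called the floor, and a difference from an array at the floor is a bound. A gene was counted as higher or lower where the brighter of its arrays reached 9.16, the median probe, and the difference was at least 2-fold, which is 1 on the log2 scale.

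The labelled stages were checked against marker genes. All 5 measured pluripotency genes were at least 2-fold lower in control cells at day 4 than in ESCs, beside 8.87% of all genes. All 7 measured cardiac muscle genes were at least 2-fold higher in control cells at day 10 than at day 4. The day 10 arrays also held markers of other cells: all 8 liver-type endoderm genes, 7 of 8 endothelial genes, 9 of 11 fibroblast and mesenchyme genes, 5 of 8 epicardial genes, 3 of 5 macrophage genes and 6 of 11 primitive and parietal endoderm genes were at least 2-fold higher in control cells at day 10 than at day 4, beside 12.3% of all genes. In the endothelial list Kdr (-1.15) was lower, in the epicardial list Aldh1a2 (-1.41), and 1 primitive and parietal endoderm gene was lower too, beside 12.5% of all genes. In a bulk culture, fewer cells of a type and less RNA per cell cannot be told apart.

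Collagens are trimers of alpha chains wound into a triple helix, and the chains a cell makes decide which collagen it can build. Fibrillar collagens (types I, II, III, V and XI among others) form the banded fibres of connective tissue, and type IV forms the sheet-like network of basement membranes. Type VI forms beaded filaments near cells, fibril-associated collagens such as IX, XII, XIV and XVI sit on the surface of fibres, and type VIII forms short-chain networks around vessels. In the developing heart, interstitial collagens come mainly from fibroblasts and their epicardial and endothelial precursors, while type IV chains are made by most cells that rest on a basement membrane.

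The region before the start site is shown for 4 interstitial collagen genes with large day 10 to day 4 differences in both lines, so that their differing base composition can be seen beside that shared course. Each sequence is the 150 bases before the annotated start, 5′ to 3′ on the gene's strand, from RefSeq on GRCm38.p6, and capitals mark any match to CCAAT (the box bound by NF-Y), TATAAA or GGGCGG (a GC box), searched on both strands.
Col1a2 (chr6:4505468-4505617, plus strand): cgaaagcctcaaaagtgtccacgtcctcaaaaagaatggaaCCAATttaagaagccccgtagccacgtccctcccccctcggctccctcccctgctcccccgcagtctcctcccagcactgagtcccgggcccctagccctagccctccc
Col3a1 (chr1:45311388-45311537, plus strand): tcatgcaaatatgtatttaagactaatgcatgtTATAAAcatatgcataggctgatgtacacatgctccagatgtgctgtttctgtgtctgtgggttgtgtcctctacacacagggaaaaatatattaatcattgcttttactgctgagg
Col5a1 (chr2:27886275-27886424, plus strand): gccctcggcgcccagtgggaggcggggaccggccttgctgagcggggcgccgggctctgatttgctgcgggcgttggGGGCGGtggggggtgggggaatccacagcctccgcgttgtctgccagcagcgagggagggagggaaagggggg
Col6a1 (chr10:76726045-76726194, minus strand): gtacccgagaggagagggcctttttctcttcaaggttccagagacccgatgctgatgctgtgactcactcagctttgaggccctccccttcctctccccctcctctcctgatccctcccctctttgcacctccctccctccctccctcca
The stretch of Col3a1 held 37.3% G and C, and those of Col1a2, Col5a1 and Col6a1 held 62.7%, 74.7% and 60.0%. No motif of the 3 was in all of these stretches, and that of Col6a1 held none of these letters. RefSeq promoter windows of 300 bases (250 before and 50 after the start) matched 35 of the 44 genes, with 38 windows. GGGCGG was in 23 of the 38 windows (60.5%) and in 35.7% of all 32851 windows. CCAAT was in 34.2% of the collagen windows and 37.4% of all, and TATAAA in 13.2% and 13.6%. These matches are descriptions of letters and not binding sites.

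In control cells, fibrillar, type IV, type VI and type VIII chain genes were all found among those higher at day 10 than at day 4. Of the 44 genes, 23 (52.3%) were at least 2-fold higher and 1 (2.27%) was lower, while among all 17742 genes 12.3% were higher and 12.5% were lower. The median log2 difference was 1.21 over the 44 genes and 0 over all genes, and 28 of the 44 passed the intensity filter in this pair. The highest differences were those of the fibrillar chain genes Col3a1 (at least 7.62, 197-fold) and Col1a2 (7.17, 144-fold). Without normalization between arrays the median of all genes stood at -0.72. The collagen counts were then 17 higher and 4 lower, beside 6.16% and 30.9% of all genes.

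**Figure D1:**
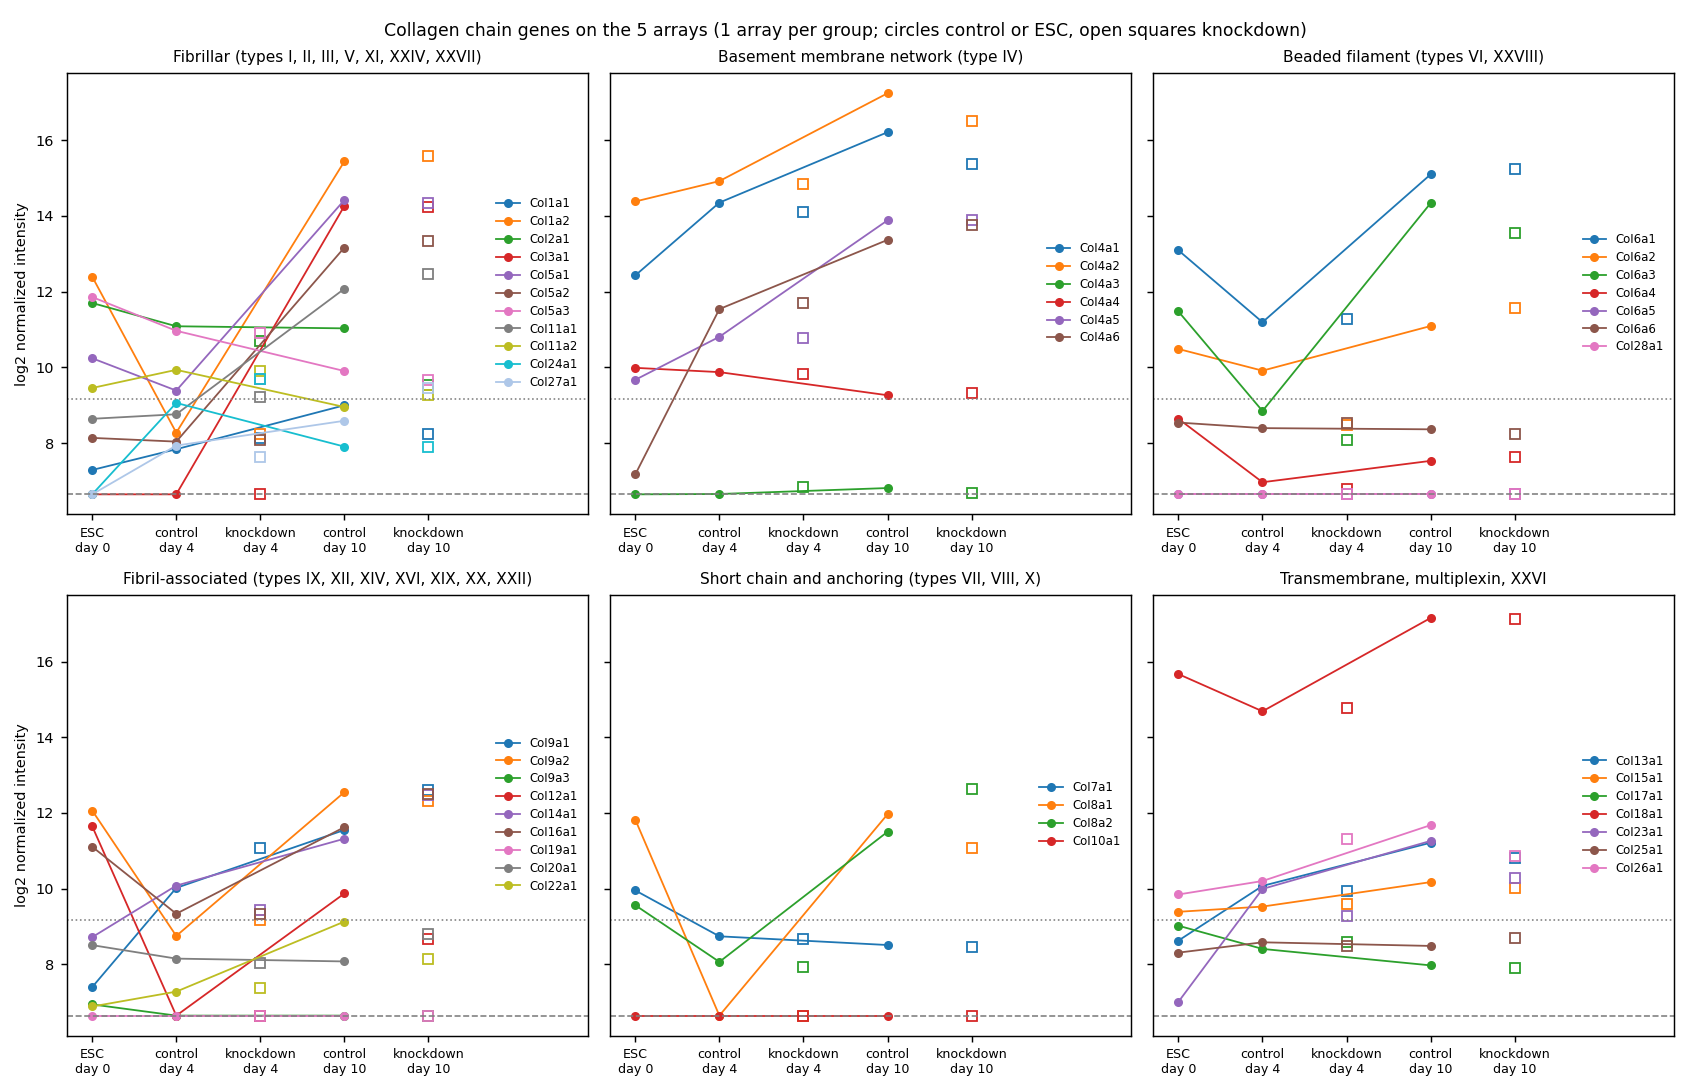
Log2 normalized intensity of the 44 collagen chain genes on the 5 arrays, in 6 panels by collagen class; circles joined by lines are ESCs and control cells, open squares are knockdown cells, the dotted line is the median probe (9.16) and the dashed line the floor (6.64). Col1a2, Col3a1, Col5a1 and Col5a2 lie far higher on both day 10 arrays than on both day 4 arrays, and the squares lie near the control circles of the same day for most genes.

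Among the fibrillar chains, Col1a2 encodes a chain of type I collagen, the commonest fibre of connective tissue. It read 12.39 in ESCs, 8.27 and 8.23 at day 4 and 15.44 and 15.58 at day 10, with control before knockdown here and in all such series below. Col1a2 was thus high in ESCs, low on both day 4 arrays and highest on both day 10 arrays. Col3a1, the single chain of type III collagen, was at the floor in ESCs and on both day 4 arrays and read 14.26 and 14.24 at day 10. It was the only collagen gene at the floor on all 3 earlier arrays that passed the filter at day 10. Col5a1 and Col5a2 encode the chains of type V collagen, which helps start type I fibres. Col5a1 read 10.24 in ESCs, 9.38 and 9.69 at day 4 and 14.42 and 14.34 at day 10. Col5a2 read 8.13 in ESCs, 8.04 and 8.08 at day 4 and 13.16 and 13.33 at day 10. The type V chains were therefore 32.8-fold and 35.0-fold higher in control cells at day 10 than at day 4.

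Other fibrillar chains followed other courses. Col5a3, a less common type V chain, read 11.86 in ESCs, 10.96 and 10.90 at day 4 and 9.90 and 9.67 at day 10. It was the only collagen gene past the filter counted as lower in control cells at day 10 than at day 4, by 1.06. That call was lost with loess centring of the pair. Col11a1, a type XI chain of cartilage and embryonic mesenchyme, read 8.64 in ESCs, 8.76 and 9.22 at day 4 and 12.08 and 12.45 at day 10. Its type XI partner Col11a2 read 9.45 in ESCs, 9.93 and 9.90 at day 4 and 8.95 and 9.27 at day 10, so that Col11a1 was higher at day 10 and Col11a2 was not. Col2a1, the type II chain of cartilage and notochord, read 11.70 in ESCs, 11.08 and 10.70 at day 4 and 11.03 and 9.54 at day 10. Its control arrays were level between the days (-0.06). Col24a1, a fibrillar chain of embryonic bone and cornea, was at the floor in ESCs and read 9.06 and 9.69 at day 4 and 7.90 and 7.89 at day 10. Like Col11a2 it was brightest at day 4, on its other probe too (8.27 and 8.68 at day 4, 6.77 and 7.08 at day 10). Its control day 10 to day 4 difference (-1.15) was past 2-fold, but its brighter array in that pair lay below the filter. Col27a1, a fibrillar chain of developing cartilage, was at the floor in ESCs and read 7.93 and 7.63 at day 4 and 8.59 and 9.44 at day 10.

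The probe for Col1a1, the partner of Col1a2 in type I collagen, stayed below the filter on every array. It read 7.29 in ESCs, 7.84 and 8.14 at day 4 and 9.0 and 8.25 at day 10. The day 10 to day 4 difference in control cells was 1.16 on this single probe against 7.17 on that of Col1a2. How well this probe reads Col1a1 could not be checked here, so its values do not show low Col1a1 expression.

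Type IV collagen is the network of basement membranes, and 4 of its 6 genes were among those higher at day 10 than at day 4 in control cells. Col4a1 read 12.43 in ESCs, 14.35 and 14.11 at day 4 and 16.21 and 15.36 at day 10. Col4a2 read 14.38 in ESCs, 14.92 and 14.83 at day 4 and 17.24 and 16.50 at day 10. Both genes, which encode the chains of the most widespread type IV network, were higher at each later stage of the control course. The step of Col4a2 from ESCs to control day 4 (0.54) was, however, within the probe SD of 0.60. At day 10 the knockdown array was the lower for both genes. Col4a5 read 9.67 in ESCs, 10.81 and 10.78 at day 4 and 13.88 and 13.90 at day 10. Col4a6 read 7.17 in ESCs, 11.54 and 11.70 at day 4 and 13.37 and 13.76 at day 10. These partner chains of smooth muscle and some epithelial basement membranes also stood higher at each stage, and the knockdown and control arrays of a day lay close together. On the second probe of each, both were again higher at each stage of the control course, but control day 4 stood above ESCs by 0.66 rather than 1.14 for Col4a5, which is under 2-fold, and by 1.96 rather than 4.37 for Col4a6. The knockdown difference of Col4a5 at day 4 was -0.02 on the brighter probe and 0.19 on the other. Col4a4, a chain of kidney and lung basement membranes, read 9.99 in ESCs, 9.87 and 9.82 at day 4 and 9.26 and 9.31 at day 10, and its other probes were at the floor on all 5 arrays. Its partner Col4a3 lay between 6.64 and 6.83.

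Among the type VI genes, Col6a1 read 13.09 in ESCs, 11.19 and 11.29 at day 4 and 15.10 and 15.24 at day 10. Col6a3 read 11.47 in ESCs, 8.85 and 8.07 at day 4 and 14.34 and 13.55 at day 10. Col6a2 read 10.48 in ESCs, 9.91 and 8.46 at day 4 and 11.09 and 11.56 at day 10. These chains assemble together into the main form of type VI collagen, and all 3 were lowest at day 4 and highest at day 10. For Col6a2, however, the control differences from ESCs were within the probe SD. They were -0.57 at day 4 (SD 0.60) and 0.61 at day 10 (SD 0.79). The control day 10 to day 4 differences were 3.91 for Col6a1, 5.49 for Col6a3 and 1.18 for Col6a2. The alternative chain genes Col6a4, Col6a5 and Col6a6 did not reach the filter on any array, and neither did Col28a1.

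The fibril-associated genes fell into those bright in ESCs and those not. Col9a2 read 12.06 in ESCs, 8.75 and 9.17 at day 4 and 12.55 and 12.32 at day 10. Col12a1, a chain of tendon and fascia matrix, read 11.65 in ESCs, was at the floor on both day 4 arrays and read 9.87 and 8.66 at day 10. Col16a1 read 11.11 in ESCs, 9.34 and 9.34 at day 4 and 11.62 and 12.49 at day 10. These 3 genes were high in ESCs, low on both day 4 arrays and higher again at day 10. Col9a1 read 7.40 in ESCs, 10.02 and 11.06 at day 4 and 11.55 and 12.61 at day 10. Col14a1, which binds to type I fibres, read 8.72 in ESCs, 10.08 and 9.42 at day 4 and 11.32 and 12.48 at day 10. These genes were lowest in ESCs, and Col9a1 was the brighter in knockdown cells on both days. Col9a3, the remaining type IX chain gene, was at the floor on every array after ESCs.

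The type VIII genes, known in vessel walls and heart valves, were also low at day 4. Col8a1 read 11.82 in ESCs, was at the floor on both day 4 arrays and read 11.96 and 11.07 at day 10. Col8a2 read 9.56 in ESCs, 8.06 and 7.94 at day 4 and 11.50 and 12.64 at day 10. At day 10 the knockdown array was the lower for Col8a1 and the higher for its partner Col8a2. Col7a1, the anchoring fibril chain of skin, read 9.95 in ESCs, 8.74 and 8.68 at day 4 and 8.51 and 8.47 at day 10, and was thus above the filter in ESCs only.

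Among the remaining classes, Col18a1, the multiplexin whose cleaved end is endostatin, read 15.67 in ESCs, 14.68 and 14.78 at day 4 and 17.15 and 17.13 at day 10. Col15a1, the other multiplexin, read 9.39 in ESCs, 9.52 and 9.60 at day 4 and 10.17 and 10.01 at day 10. The lines differed by less than the probe SD for both genes at both days. The transmembrane chain gene Col13a1 read 8.63 in ESCs, 10.07 and 9.93 at day 4 and 11.21 and 10.80 at day 10. Col23a1, also transmembrane, read 7.01 in ESCs, 9.99 and 9.28 at day 4 and 11.26 and 10.27 at day 10. Both were lowest in ESCs and highest in control cells at day 10. Col26a1 read 9.84 in ESCs, 10.20 and 11.32 at day 4 and 11.68 and 10.86 at day 10, so that the knockdown array was the higher at day 4 and the lower at day 10. In all 13 collagen genes stayed below the filter on every array: Col1a1, Col4a3, Col6a4, Col6a5, Col6a6, Col9a3, Col10a1, Col17a1, Col19a1, Col20a1, Col22a1, Col25a1 and Col28a1. Of these, 4 were at the floor on all 5 arrays, among them Col10a1, the type X chain of hypertrophic cartilage. Col22a1 came nearest to the filter, at 9.13 in control cells at day 10.

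Between ESCs and control day 4 cells the collagen genes split. Of the 44 genes, 7 (15.9%) were at least 2-fold higher at day 4 and 9 (20.5%) were lower, beside 8.16% higher and 8.87% lower among all genes, and the median was 0 in both sets. The higher genes were Col4a6 (4.37), Col23a1 (2.98), Col9a1 (2.62), Col4a1 (1.92), Col13a1 (1.44), Col14a1 (1.36) and Col4a5 (1.14). The lower ones were Col8a1 (at least 5.18 lower), Col12a1 (at least 5.00 lower), Col1a2 (-4.12), Col9a2 (-3.31), Col6a3 (-2.63), Col6a1 (-1.90), Col16a1 (-1.77), Col8a2 (-1.50) and Col7a1 (-1.21). No fibrillar, type VI or type VIII gene was called higher, and no type IV gene was called lower. The fibrillar genes Col24a1 (at least 2.42) and Col27a1 (at least 1.29) were higher too, but lay below the filter on both arrays and were not counted. With scaling to a common 75th percentile the counts were 5 higher and 10 lower, beside 6.98% and 10.1% of all genes.

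Fibroblast and mesenchyme markers were read on the same arrays. Of these, 4 of 11 were at least 2-fold lower in control cells at day 4 than in ESCs and 2 were higher, beside 8.87% and 8.16% of all genes. All 11 measured markers were above the floor in ESCs (Thy1 was not measured), and Lum and Fap were at the floor on both day 4 arrays. The summed normalized intensity of the 11 was 67627 in ESCs, 18302 and 26320 at day 4 and 226420 and 248539 at day 10. Dcn (-4.86), Postn (-4.52) and S100a4 (-5.13) were lower at day 4 than in ESCs, whereas Pdgfra (3.16) and Twist1 (2.48) were higher. ESCs were grown on feeder cells until harvest, per the labels, and the part of remaining feeder cells in the ESC collagen values was not tested. Over the whole control course, from ESCs to day 10, 18 of the 44 collagen genes stood at least 2-fold higher and 3 stood lower, against 15.1% and 14.7% of all genes. Col4a6 (6.20), Col5a2 (5.03) and Col23a1 (4.25) stood among the higher ones, with Col3a1 at least 7.62 higher, and the lower ones were Col5a3 (-1.96), Col12a1 (-1.78) and Col7a1 (-1.44). The counts were 18 and 6 with scaling to a common 75th percentile, beside 13.03% and 18.9% of all genes. They were 18 and 7 without normalization between arrays, beside 9.24% and 24.3% of all genes.

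From day 4 to day 10 in the knockdown line, 20 of the 44 genes were at least 2-fold higher at day 10 and 3 were lower, beside 12.1% and 11.6% of all genes, and the median was 0.93. The lines shared 19 of the higher genes, which is 82.6% of the control list and 95% of the knockdown list. Over all genes the lines shared 1679 higher genes, which is 76.9% of the control list and 78.5% of the knockdown list. Col12a1, Col13a1, Col23a1 and Col26a1 were called in control cells only and Col27a1 in knockdown cells only. Col12a1 was nevertheless at least 2.01 higher in knockdown cells, with its brighter array below the filter, and Col13a1 and Col23a1 were 0.87 and 0.99 higher. Col2a1 (-1.16), Col5a3 (-1.23) and Col24a1 (-1.81) were lower. No test of a difference between the lines' courses was possible.

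**Figure D2:**
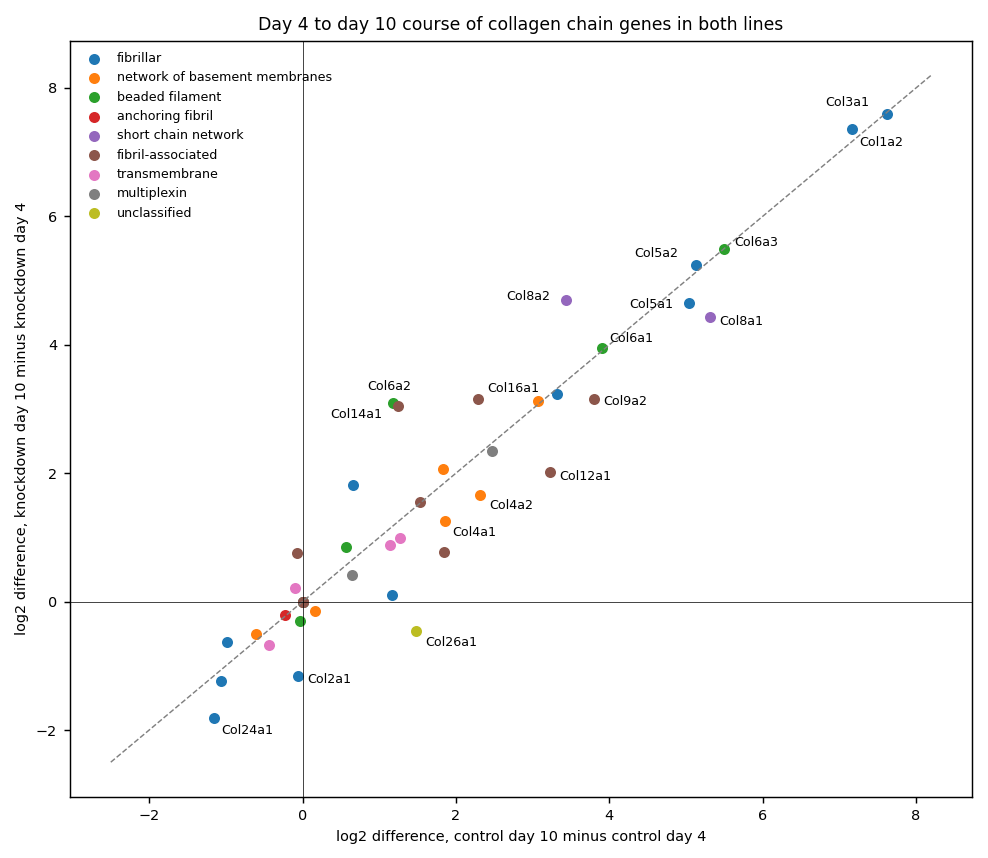
Log2 difference from day 4 to day 10 in control cells (x axis) and in knockdown cells (y axis) for the 44 collagen chain genes, 1 point per gene coloured by class; the dashed line marks equal differences. Most points lie near the line, Col6a2, Col14a1 and Col8a2 lie above it, and Col26a1, Col12a1 and Col2a1 lie below it.

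Between knockdown and control cells at day 4, the genes counted were Col26a1, Col9a1 and Col6a2. At this stage 2 of the 44 genes (4.55%) were at least 2-fold higher in knockdown cells and 1 (2.27%) was lower, beside 0.485% and 0.885% of all genes, and the median was 0. The higher genes were Col26a1 (1.12) and Col9a1 (1.04), and the lower one was Col6a2 (-1.45). In all, 30 of the 44 differences (68.2%, beside 71.1% of all genes) were within the probe SD of 0.21. Among them were those of Col4a2, Col6a1 and Col18a1. Those of Col1a2 and Col5a2 were too, but these genes lay below the filter in this pair. Col3a1 was at the floor on both arrays, which fixed its difference at 0, and 8 of the 44 differences were 0. Differences beyond that SD but under 2-fold included Col24a1 (0.64), Col11a1 (0.46), Col14a1 (-0.65) and Col23a1 (-0.71). Col6a2 was thus apart from its type VI partner Col6a1 (0.10), and Col6a3, at -0.78, lay below the filter in this pair.

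At day 10, 3 of the 44 genes (6.82%) were at least 2-fold higher in knockdown cells and 2 (4.55%) were lower, beside 1.53% and 2.22% of all genes, and the median was -0.01. The higher genes were Col14a1 (1.16, 2.23-fold), Col8a2 (1.14, 2.21-fold) and Col9a1 (1.06, 2.08-fold), and the lower ones were Col2a1 (-1.48, 2.80-fold) and Col12a1 (-1.21, 2.32-fold). The main fibrillar genes were level: Col1a2 differed by 0.14, Col3a1 by -0.02, Col5a1 by -0.08 and Col5a2 by 0.16, all within the probe SD of 0.27. In all, 23 of the 44 differences (52.3%, beside 64.0% of all genes) were within that SD. Differences beyond that SD but under 2-fold were seen for the type IV genes Col4a1 (-0.85) and Col4a2 (-0.74), whereas Col4a5 (0.02) was level and Col4a6 differed by 0.40. Col23a1 (-0.99), Col8a1 (-0.89), Col26a1 (-0.81) and Col6a3 (-0.78) lay on the lower side, and Col16a1 (0.87) and Col27a1 (0.86) on the higher. Without normalization between arrays, where the median of all genes stood at 0.37, the counts were 6 higher and 1 lower, and the difference of Col12a1 was -0.94. Of all genes 6.17% were then higher and 0.902% lower. The counts were 3 higher and 3 lower with scaling to a common 75th percentile and with loess centring. Of all genes 1.61% were higher and 2.50% lower with scaling, and 1.43% and 2.33% with loess centring.

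**Figure D3:**
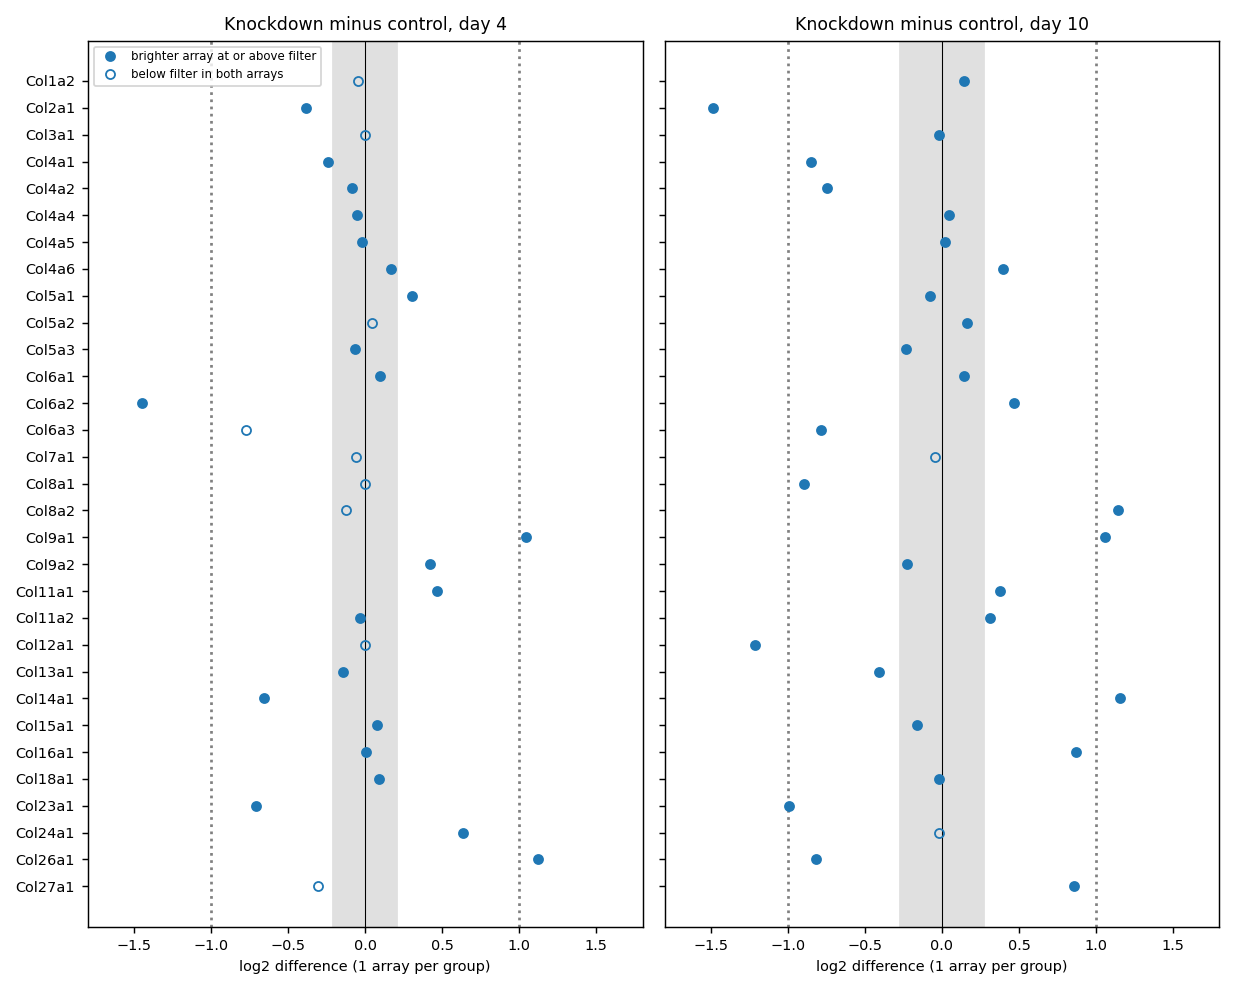
Log2 difference between knockdown and control arrays at day 4 (left) and day 10 (right) for the 31 collagen genes above the filter on at least 1 array; filled points passed the filter in that pair, the grey band is plus or minus the probe SD (0.21 and 0.27) and dotted lines mark 2-fold. Points past the dotted lines are Col6a2, Col9a1 and Col26a1 at day 4 and Col2a1, Col8a2, Col9a1, Col12a1 and Col14a1 at day 10.

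Col9a1 was the only collagen gene counted at both days, on the same side, with 2.06-fold at day 4 and 2.08-fold at day 10.

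Markers of other cells differed between the same day 10 arrays, on which knockdown cells had 1.53% of all genes counted as higher and 2.22% as lower. Epicardial genes summed to 45679 in control and 157998 in knockdown cells, with all 8 above the floor in both and 7 of 8 at least 2-fold higher, and Wt1 differed by 2.61 and Tcf21 by 1.45. Liver-type endoderm genes summed to 182281 and 27296, with all 8 above the floor in both and 7 of 8 at least 2-fold lower. Cardiac muscle genes summed to 490689 and 283110, with all 7 measured above the floor in both, 5 lower and 1 higher (Tnnt2, 3.05). Macrophage genes summed to 11558 and 5703, with all 5 above the floor in both and 2 lower, while fibroblast and mesenchyme genes summed to 226420 and 248539, with 2 of 11 higher. Cartilage genes, read because Col2a1 and Col9a1 are cartilage collagens, summed to 12703 and 9388, with Matn1, Comp and Cnmd at the floor in both and 0 of 9 counted. Of the other lists, 0 of 7 bone genes, 0 of 11 primitive and parietal endoderm genes, 0 of 5 smooth muscle genes and 0 of 5 neural genes were counted, 1 of 7 surface epithelium genes and 1 of 5 pluripotency genes were lower and 1 of 8 endothelial genes was higher. At day 4 the fibroblast and mesenchyme sum was 18302 in control and 26320 in knockdown cells, with 2 of 11 genes higher. On the same day 4 arrays pluripotency genes summed to 16429 and 5035, with 1 of 5 lower, endothelial genes to 32080 and 19455, with 1 of 8 lower, and liver-type endoderm genes to 8876 and 5691, with 1 of 8 lower. In the epicardial, primitive and parietal endoderm and cartilage lists 1 gene each was lower at day 4. On these arrays 0.885% of all genes were lower and 0.485% higher. The part of these cell types in the collagen differences was not tested.

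Chains that assemble together and genes that lie side by side were compared next. Of the 44 genes, 15 lay next to another collagen gene in the order of protein-coding genes of GRCm38.p6, in 8 pairs. Col4a1 and Col4a2 lie head to head, and their promoter windows overlap by 78 of 300 bases. They differed by 1.86 and 2.32 between control day 10 and day 4 and by -0.85 and -0.74 between knockdown and control at day 10, but by 1.92 and 0.54 between control day 4 and ESCs. Col4a5 and Col4a6, also head to head, differed by 3.08 and 1.83 between control day 10 and day 4. Col3a1 and Col5a2 are neighbours as well, at least 7.62 and 5.13 higher at day 10. Neither differed between the lines at day 10 by more than the probe SD. At day 4 Col3a1 was at the floor and Col5a2 below the filter in both lines. Col6a1 and Col6a2 are neighbours on the same strand, with knockdown differences of 0.10 and -1.45 at day 4. The neighbour of Col9a1, Col19a1, was at the floor on every array.

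The enzymes and partners that make, cut, bind and accompany collagens were counted from lists set by function. From day 4 to day 10 in control cells, 10 of 21 measured genes of chain modification and folding were at least 2-fold higher and 1 was lower, with a median of 0.77. They included P4ha3 (4.77) and P4ha1 (2.45), subunits of the prolyl 4-hydroxylase that stabilises the helix, Plod2 (2.99), a lysyl hydroxylase, and Sec24d (3.17), a coat protein of secretory vesicles, with Fkbp14 (-1.31) and Plod1 (-0.30) on the other side. Serpinh1, the collagen chaperone HSP47, was 1.18 higher. Propeptide removal and crosslinking genes stood at 6 of 15 higher and 2 lower, with a median of 1.07. Among these were Pcolce (5.17), an enhancer of procollagen cleavage, and the crosslinking oxidases Lox (at least 4.41) and Loxl2 (3.97), while Pcolce2 (-3.04) and Loxl4 (-1.53) were lower.

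Of the genes of collagen breakdown and its inhibitors, 8 of 15 were higher at day 10 in control cells and 0 were lower, with a median of 1.03. They included the inhibitors Timp3 (4.24) and Timp1 (3.70), the gelatinase Mmp9 (3.19) and the uptake receptor Mrc2 (2.43). Collagen receptors stood at 7 of 13 higher and 0 lower, led by Itga1 (4.74), an integrin chain that binds type IV collagen, and Ddr2 (3.65), a receptor kinase for fibrillar collagens. Basement membrane partners stood at 13 of 21 higher and 1 lower (median 1.53), with Smoc2 (6.33), Nid1 (4.21) and Lama2 (3.49) higher and Smoc1 (-1.88) lower. Interstitial matrix partners stood at 19 of 28 higher and 1 lower (median 2.08), among them Lum (at least 9.49), Dcn (6.65) and Postn (5.69), proteins that bind collagen fibres, with Tnxb (-1.03) lower. All of these lists stand beside the same shares of all genes, 12.3% higher and 12.5% lower.

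**Figure D4:**
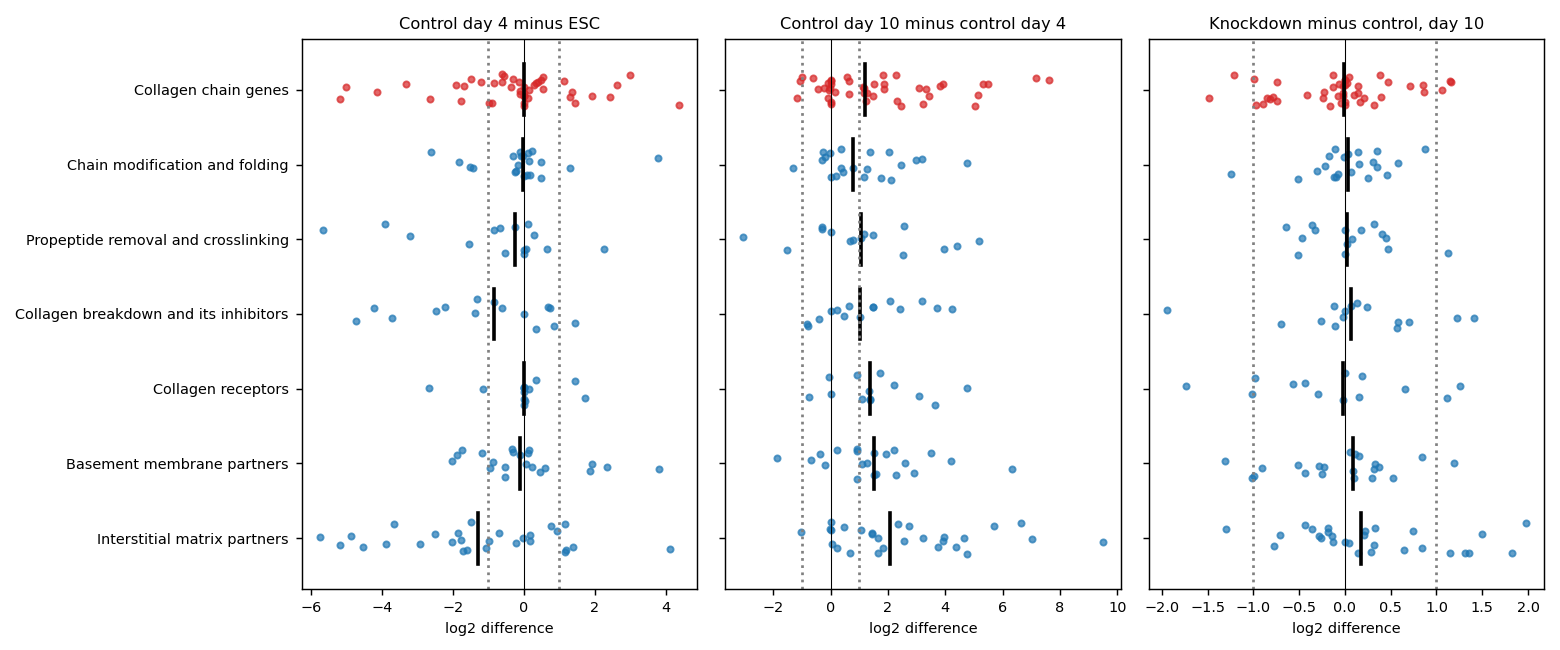
Log2 difference of each collagen chain gene (red) and of each measured gene of 6 partner lists (blue) for control day 4 minus ESCs, control day 10 minus control day 4 and knockdown minus control at day 10; black bars are medians and dotted lines mark 2-fold. In the middle panel all 7 medians lie above 0, from 0.77 to 2.08, and in the right panel they lie between -0.02 and 0.17.

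Between ESCs and control day 4, where 8.16% of all genes were higher and 8.87% lower, interstitial matrix partners stood at 5 of 28 higher and 13 lower (median -1.28), with Thbs1 (-5.75) and Tnc (-5.16) lower and Fbn2 (4.12) higher. The difference of Lox was -5.66 or beyond, and 6 of 15 breakdown genes and inhibitors were lower, led by Mmp3 (-4.72) and Timp1 (-4.21). Basement membrane partners stood at 4 higher and 4 lower of 21, with Frem1 at least 3.80 higher and Nid1 lower (-2.03). Between knockdown and control at day 10, where 1.53% of all genes were higher and 2.22% lower, 5 of 28 interstitial partners (17.9%) were higher and 1 was lower. Fmod (1.98), which binds type I fibres, Mfap4 (1.83), Fbln5 (1.50) and Ogn (1.36) were higher, and Tnc (-1.30) was lower. Of the 13 receptors, Ddr2 (1.26) and Itga11 (1.12) were higher and Itga1 (-1.02) lower, of the basement membrane partners Fras1 (1.20) was higher and Frem2 (-1.31) and Lama3 (-1.01) lower, and of the modifying enzymes P3h2 (-1.24), a prolyl 3-hydroxylase of type IV chains, was lower. The crosslinking enzyme Tgm2 (1.13) and the protease Mmp16 (1.41) were higher, and Mmp9 (-1.95) was lower. Between knockdown and control at day 4, P3h2 (-1.11) and Plod1 (-1.06) were the only partner genes counted, leaving out the signalling genes. Both were lower and belong to the 21 measured modification and folding genes, beside 0.885% of all genes lower and 0.485% higher.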

How the data were processed

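Total RNA of 5 cultures was amplified, labelled with Cy5 (5 µg per array) and hybridised, per the labels' protocols. The deposited values are probe intensities on a linear scale from Agilent Feature Extraction 10.7.1.1, per the submitters' processing notes, and a normalization between arrays was not given in the sources used here. Array medians ran from 344 to 745 and some values were below 0, so the values were treated as background-subtracted and not equalised between arrays. The knockdown day 10 array held 1050 probes at or below 0. Such probes numbered 3 in ESCs, 38 and 0 in control and knockdown cells at day 4, and 3 in control cells at day 10. Intensities of 26423 probes were quantile normalized (Python 3.11.15, numpy 2.4.6), floored at 100 and put on the log2 scale. Between 19.0% and 19.1% of an array's probes were at the floor. Detection and saturation marks were not used here. Symbols were updated through RefSeq genes of GRCm38.p6: 20377 probes had 1 gene symbol, 0 had several and 6046 were unnamed here. The probe SD came from the 2 brightest probes of a gene, where both passed the filter in the pair and lay above the floor on both arrays. It therefore does not cover genes below the filter or at the floor. Genes named were all collagen genes past the 50th percentile on any array, and up to 4 list members in the direction of a list's median and 2 against it. Serpinh1 was named outside that rule. Members, lists (7 partner and 13 marker lists) and rules were chosen with earlier results of these data known. The steps were tested on simulated data. Alternatives were the values as deposited, scaling to the 75th percentile, loess centring, floors of 50 and 200, other filters, a 4-fold threshold and the mean of all probes. The number of arrays limits the precision.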

Additional observations from a re-analysis of the deposited data

Results flagged for a closer look

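For 3 collagen genes the knockdown and control arrays differed in opposite directions at the 2 days, with 1 difference past 2-fold and the other beyond the probe SD. Col6a2 differed by -1.45 at day 4 and 0.47 at day 10. Col14a1 differed by -0.65 at day 4 and 1.16 at day 10. Col26a1 differed by 1.12 at day 4 and -0.81 at day 10. Counting differences of any size, 22 collagen genes differed in opposite directions at the 2 days and 14 in the same direction. The other 8 had a difference of 0 on at least 1 day. The share of all genes that meet the rule for these 3 was not counted, so whether 3 is unusual cannot be said. With 1 array per group the difference between the days was not tested.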

How the results depend on the processing

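No paired analysis was possible because each group holds 1 array, and for the same reason no replicate could be left out. The count of collagen genes higher in control cells at day 10 than at day 4 stayed at 23 under both floors, loess centring, scaling to the 75th percentile and the mean of all probes. With a 4-fold threshold the count higher was 15 for control day 10 against day 4, beside 5.45% of all genes. It was 3 for control day 4 against ESCs (2.54%). For knockdown against control it was 0 on either day (0.0676% of all genes at day 4 and 0.355% at day 10). With that threshold the counts lower were 5 for control day 4 against ESCs (3.71% of all genes) and 0 for the other 5 comparisons (0.101% to 4.73%). With a filter at the 75th percentile the count higher was 14 for control day 10 against day 4, beside 6.89% of all genes. It was 1 for control day 4 against ESCs (3.82%) and 0 for knockdown at day 4 (0.135%). The counts lower were 3 for control day 4 against ESCs (4.29%) and 0 for the others (0.186% to 8.49%). Medians over the genes past that filter were 3.85 and 3.15 for the day 4 to day 10 course in control and knockdown cells, 3.24 for control day 10 against ESCs and -1.44 for control day 4 against ESCs. A gene could pass through its brighter array alone, so the filter itself favours large differences. No like median was taken over all genes, and these medians cannot be set against the main ones. Without normalization between arrays the knockdown at day 10 gave 6 higher and 1 lower (6.17% and 0.902% of all genes). The collagen median was then 0.31, beside 0.37 over all genes. In that setting the counts lower were 7 for control day 10 against ESCs, beside 24.3% of all genes. They were 4 for the control course (30.9%) and 5 for the knockdown course (24.1%). Scaling to the 75th percentile gave 6 lower for control day 10 against ESCs (18.9% of all genes) and 2 for the control course (14.3%). No filter gave 5 and 2 (16.9% and 14.4%), and loess centring gave 0 for the control course (9.46%). The causes of these shifts were not tested, apart from the fewer genes that a stricter filter or threshold leaves. Of the single-gene differences, 1031 moved by less than the probe SD and 85 by more (62 of them without normalization between arrays), and 0 called differences changed sign. Signal over background limits the 13 genes below the filter.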

Other observations

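The list of fibrosis signalling genes, ligands and receptors known to act on collagen genes, was read on the same arrays. Tgfb2, a TGF-beta ligand of cardiac cushions, read 8.38 in ESCs, 13.20 and 14.23 at day 4 and 14.93 and 15.48 at day 10. It was 4.83 higher in control cells at day 4 than in ESCs and 1.03 higher in knockdown than in control cells at day 4. Tgfb3 was 2.04 higher in control cells at day 10 than at day 4 and 1.88 higher in knockdown than in control cells at day 10. Ccn2, a matrix protein that TGF-beta induces in many cells, was 2.57 lower at day 4 than in ESCs and 1.28 lower in knockdown than in control cells at day 10. In control cells 5 of 12 measured genes of the list were at least 2-fold higher at day 10 than at day 4, beside 12.3% of all genes, among them the receptor gene Tgfbr2 (3.48). Pdgfa (-1.16) and Pdgfb (-1.45) were lower, beside 12.5% of all genes.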
